A study of Mus musculus with 4 samples.

Results

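The genes described here are 46 protein-coding genes that drive or restrain the passage through G1 or that carry out G2/M and mitosis, out of 49997 genes in the deposited table. They were chosen by symbol, with no threshold on their values but with earlier results of these data known: the D cyclins and their kinases (Ccnd1, Ccnd2, Ccnd3, Cdk4, Cdk6), CDK inhibitors (Cdkn1b, Cdkn2a, Cdkn2b, Cdkn2c), the mitotic cyclins with Cdk1 and its regulators (Ccna2, Ccnb1, Ccnb2, Cdk1, Cdc25a, Cdc25b, Cdc25c, Wee1, Foxm1), mitotic kinases and chromosomal passengers (Plk1, Aurka, Aurkb, Birc5, Incenp, Tpx2), the spindle checkpoint and the anaphase-promoting complex (Bub1, Bub1b, Bub3, Mad2l1, Ttk, Cdc20, Ube2c), centromere and kinetochore proteins (Cenpa, Cenpe, Cenpf), mitotic kinesins (Kif11, Kif20a, Kif23), condensin and the mitotic chromosome (Top2a, Mki67, Smc2, Smc4, Ncapd2, Ncapg) and cohesin (Rad21, Smc1a, Smc3). All 46 had a row in the table and all passed the filter on low counts. RNA was sequenced from E14, a mouse embryonic stem cell (ESC) line, in 4 libraries: 2 of cells with a scrambled short hairpin RNA (shScramble) and 2 of cells with a hairpin against Ythdf2 (shYthdf2), which encodes a cytoplasmic reader of N6-methyladenosine that promotes decay of the mRNAs it binds. Both groups were infected with lentivirus, selected as stable lines with puromycin and grown without feeder cells on gelatin in serum replacement with leukemia inhibitory factor. The labels do not say which hairpin against Ythdf2 was used, and the study's methods describe ESCs with a tdTomato reporter under the MERVL promoter while the labels name E14 alone. The comparison asks how the transcripts of these genes stood in Ythdf2-depleted ESCs.

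D cyclins bind Cdk4 and Cdk6 and phosphorylate the retinoblastoma proteins, and CDK inhibitors hold these complexes back. ESCs divide rapidly with a short G1 and spend most of their cycle in S, G2 and M. Genes of G2/M share a transcriptional programme in which MuvB complexes act at a promoter element called the cell cycle genes homology region (CHR). These complexes work with B-Myb and FoxM1, or as the repressive DREAM complex, and the CHR often lies beside CCAAT boxes bound by NF-Y. Products of these genes act in mitotic entry with Cdk1 and in attaching chromosomes to the spindle. Some of them are then destroyed by the anaphase-promoting complex.

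Across the 46 genes shYthdf2 cells differed from shScramble cells by a rise of Ccnd1 (cyclin D1) and a fall of the cohesin subunit Rad21, while Cdk1, its cyclins and the mitotic kinases showed small differences that did not pass the test. At an adjusted p under 0.05 in edgeR's quasi-likelihood test, 1 member was higher and 1 was lower. Of all 18341 genes tested 3.91% were called (2.43% higher and 1.49% lower), so that 2 of 46 is close to the background and is not a result about the members as a list. The median log2 fold change of the members was -0.06, against 0.0019 over all genes tested, and 35 members lay below 0 while 11 lay above. At an unadjusted p under 0.05, 3 members were higher (11% of all genes) and 7 were lower (9.8% of all genes). The values of both shYthdf2 libraries lay above both controls for 6 members (26.2% of all genes) and below both controls for 16 (25.5% of all genes). By role, the CDK inhibitors, the mitotic cyclins with Cdk1 and its regulators, the mitotic kinases, the checkpoint genes and the kinesins had 0 calls by edgeR, DESeq2 or limma-voom and 0 at an unadjusted p under 0.05. Of the D cyclins and their kinases edgeR and limma-voom each called 1 (Ccnd1) and DESeq2 called 2 (Ccnd1 and Ccnd2), and of the cohesin genes each tool called 1 (Rad21). The centromere genes had 0 calls by these tools and 1 at an unadjusted p under 0.05, and the condensin and mitotic chromosome genes had 0 calls by edgeR or limma-voom, 1 by DESeq2 (Ncapg) and 3 at an unadjusted p under 0.05. The count of calls depended on single libraries, both over the members and over all genes. With a library left out, the lone remaining library of its group is assumed to vary like the other group. Since 2 libraries stood against 2, the smallest two-sided p of an exact permutation test would be 0.333. Each gene therefore has only the p of the model. The variance behind it comes from the spread between these libraries, moderated with that of other genes (7.85 prior degrees of freedom).

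**Figure D1:**
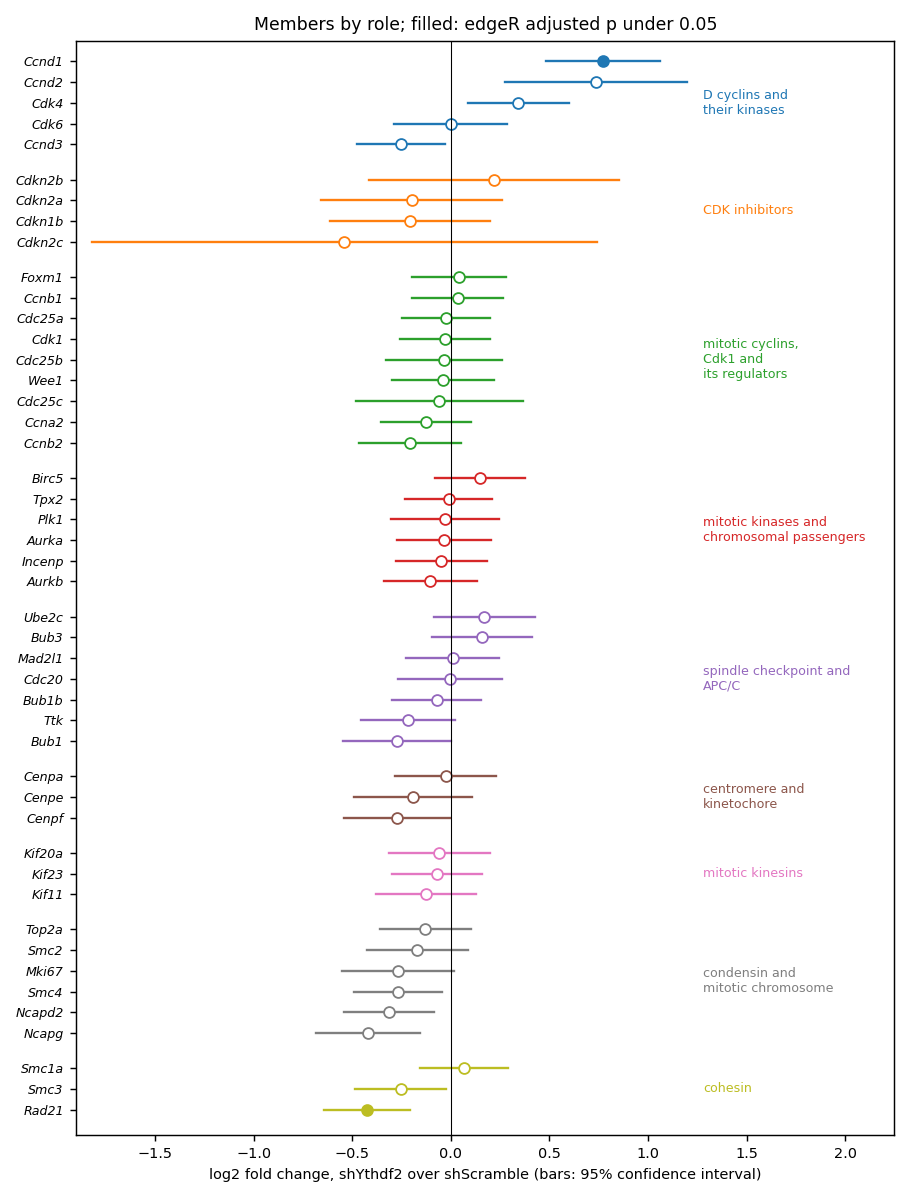
Log2 fold change of each of the 46 genes in shYthdf2 over shScramble (x axis), grouped and coloured by role, with 95% confidence intervals from the fit over all genes. Filled points are the called genes, Ccnd1 at 0.77 and Rad21 at -0.43, and most points of the mitotic cyclins and kinases lie close to 0.

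In the plot of fold changes by role, D cyclins spread to both sides of 0. The mitotic cyclins, Cdk1 and the mitotic kinases lay between -0.21 and 0.15. Of the condensin, mitotic chromosome and cohesin genes 8 of 9 lay below 0 (49.8% of all genes). All 3 centromere genes and all 3 kinesins did too, with Cenpf at -0.28. The checkpoint genes ran from -0.27 to 0.17 and the CDK inhibitors from -0.54 to 0.22.

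Libraries held between 31113006 and 36422510 reads in genes, and no member was at 0 in any library, the lowest having 26 reads. Ythdf2 itself had 3365 and 2760 reads in shScramble replicates 1 and 2 and 1086 and 1082 reads in shYthdf2 replicates 1 and 2. Both depleted libraries were far below both controls, with a log2 fold change of -1.55 (SE 0.11, adjusted p = 0.000693), or 34.2% of the control level. All 10 ESC markers were tested. EdgeR called 1 of them lower (1.49% of all genes) and 0 higher, while DESeq2 and limma-voom each called 2 lower. At an unadjusted p under 0.05, 4 were lower (9.8% of all genes) and 0 higher, and 8 lay below 0 (49.8% of all genes). Of 16 markers of 2C-like cells, which resemble the embryo at the 2-cell stage, 15 were tested. Of these edgeR called 3 higher (2.43% of all genes), DESeq2 4 and limma-voom 1, with 0 lower. At an unadjusted p under 0.05, 13 were higher (11% of all genes). The summed level of the 15 was 53.2 and 80.7 CPM (reads scaled to a common library total) in shScramble replicates 1 and 2. It was 103.7 and 265 CPM in shYthdf2 replicates 1 and 2. Of 10 fibroblast markers 5 were tested (between 17.02 and 32.9 CPM summed over the list). None was called by edgeR, DESeq2 or limma-voom, and 1 was lower at an unadjusted p under 0.05 (9.8% of all genes). Of 14 markers of differentiated lineages 12 were tested (between 50.7 and 69.2 CPM). EdgeR called 1 higher, Neurod1 (2.43% of all genes), and 0 lower, and DESeq2 and limma-voom each called 1 higher. At an unadjusted p under 0.05, 1 was higher (11% of all genes) and 2 were lower (9.8% of all genes), the genes T (-1.30) and Gata3 (-0.97). The part of these marker changes in the members' values was not tested, and in bulk RNA fewer cells of a type and less RNA per cell cannot be told apart.

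Promoter sequence gives a view of these genes that does not rest on the counts. Windows of 300 bases, 250 before and 50 after the annotated start, were found for 34 of the 46 genes in the RefSeq promoters of GRCm38.p6 (38 windows, since some genes have alternative starts), and 12 genes had no entry: Ccnd1, Ccnd2, Ccna2, Cdc25c, Wee1, Foxm1, Aurkb, Incenp, Tpx2, Kif20a, Smc4 and Rad21. The core of the CHR, written TTTGAA, and the NF-Y motif CCAAT were searched on both strands, and the same bases may count for both. Shown here are promoters of genes that carry the G2/M pattern (Ccnb2, Cdk1, Top2a and Ncapg) and of Cdk4, which has neither motif, each written 5′ to 3′ on the strand of the gene with matches of either motif on either strand in capitals.
Ccnb2 (chr9:70421505-70421804, minus strand): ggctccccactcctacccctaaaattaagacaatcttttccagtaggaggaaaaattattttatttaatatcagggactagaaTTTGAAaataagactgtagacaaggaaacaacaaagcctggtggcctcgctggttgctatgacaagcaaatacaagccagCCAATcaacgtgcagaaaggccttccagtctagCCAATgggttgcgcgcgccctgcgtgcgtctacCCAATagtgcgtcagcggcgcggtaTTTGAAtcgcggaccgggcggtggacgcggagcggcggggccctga
Cdk1 (chr10:69352863-69353162, minus strand): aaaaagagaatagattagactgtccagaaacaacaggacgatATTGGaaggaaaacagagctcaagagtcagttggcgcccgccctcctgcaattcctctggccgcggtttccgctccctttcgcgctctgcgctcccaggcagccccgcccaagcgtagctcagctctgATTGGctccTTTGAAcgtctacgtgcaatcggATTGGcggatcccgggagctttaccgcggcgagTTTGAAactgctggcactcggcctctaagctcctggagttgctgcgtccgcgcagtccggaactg
Top2a (chr11:99024140-99024439, minus strand): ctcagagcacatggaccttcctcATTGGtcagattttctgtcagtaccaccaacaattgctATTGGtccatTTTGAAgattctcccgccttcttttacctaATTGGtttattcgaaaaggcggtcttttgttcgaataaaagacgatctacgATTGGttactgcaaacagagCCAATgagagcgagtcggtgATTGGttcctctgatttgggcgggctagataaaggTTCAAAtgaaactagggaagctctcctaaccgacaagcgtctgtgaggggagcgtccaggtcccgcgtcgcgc
Ncapg (chr5:45669675-45669974, plus strand): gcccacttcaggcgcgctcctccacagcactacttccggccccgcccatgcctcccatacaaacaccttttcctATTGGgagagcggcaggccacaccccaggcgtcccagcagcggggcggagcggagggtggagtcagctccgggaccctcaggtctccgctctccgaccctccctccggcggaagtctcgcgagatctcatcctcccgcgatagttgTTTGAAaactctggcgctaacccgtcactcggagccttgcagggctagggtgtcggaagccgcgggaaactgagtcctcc
Cdk4 (chr10:127063285-127063584, plus strand): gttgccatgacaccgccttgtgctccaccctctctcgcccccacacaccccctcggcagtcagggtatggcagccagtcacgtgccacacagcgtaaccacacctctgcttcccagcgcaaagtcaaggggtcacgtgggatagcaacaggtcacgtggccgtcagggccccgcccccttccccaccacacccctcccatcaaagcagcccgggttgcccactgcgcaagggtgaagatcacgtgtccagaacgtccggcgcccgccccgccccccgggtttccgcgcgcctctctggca

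In Ccnb2 the NF-Y motif occurs 3 times in the same direction, starting 87, 54 and 21 bases before the start, followed by a CHR core 5 bases after it. Cdk1 also holds 3 NF-Y motifs and 2 CHR cores, and the core nearest to its start begins 15 bases before it. Top2a holds 6 NF-Y motifs, whereas Ncapg has 1 far upstream and a CHR core that begins 30 bases before the start.

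Of the 26 windows of G2/M and mitosis genes, 19 (73.1%) held TTTGAA, against 17.9% of all 32851 promoter windows. CCAAT was found in 24 of them (92.3%, against 37.4% of all), and both motifs together in 19 (73.1%, against 6.95% of all). All 5 condensin and mitotic chromosome genes with a window had both. Of the 10 windows of D cyclins, their kinases and CDK inhibitors, 1 held TTTGAA, 4 held CCAAT and 0 held both, and of the 2 cohesin windows 1 held CCAAT and 0 held TTTGAA. In 16 of the 26 G2/M windows (61.5%) a CHR core began within 50 bases of the start, against 4.94% of all windows. In 5 of the 26 (19.2%) there was a pair of NF-Y motifs in the same direction spaced 31 to 33 bases apart, against 0.794% of all windows, a spacing chosen after the windows were seen. A match is a string of letters in a short window and not a tested binding site, and the 2 windows of Bub3 overlap each other. No window of a member held matches of the different motifs that share bases (47 of all windows did), and 1, that of Ube2c, held overlapping NF-Y matches.

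**Figure D2:**
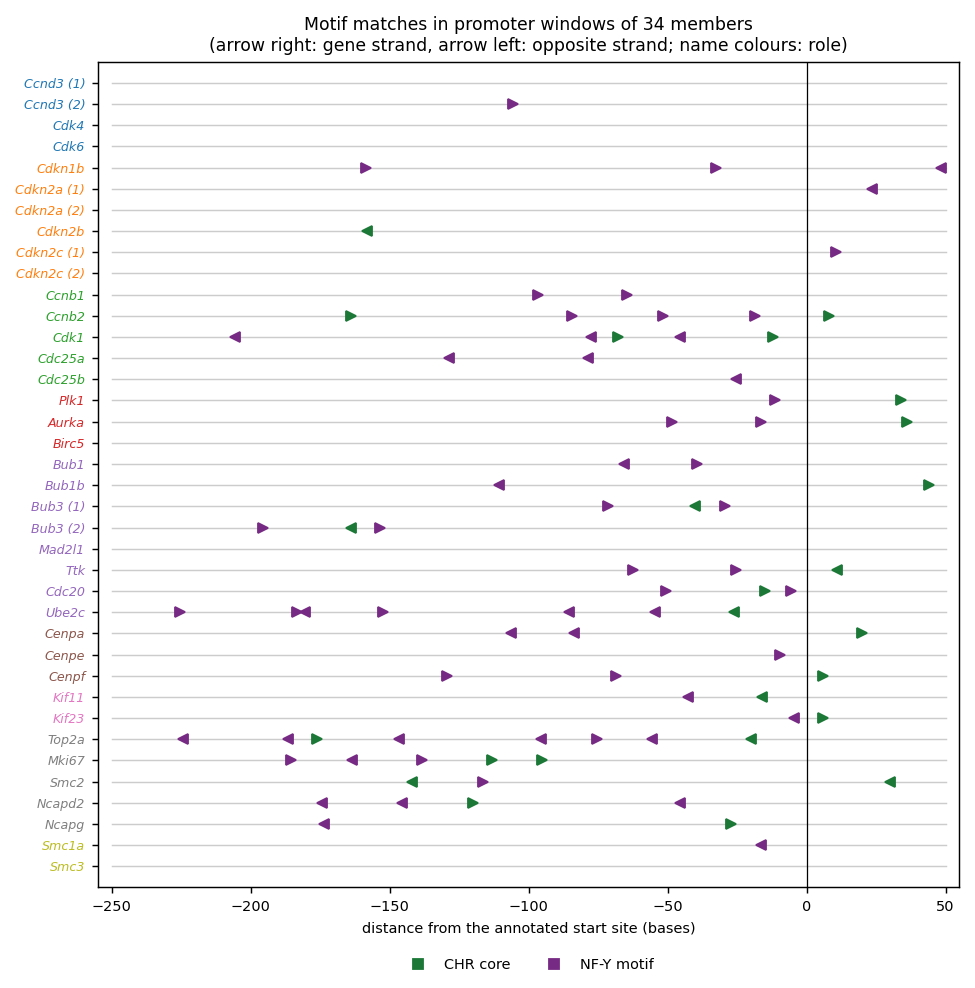
Positions of the matches of the CHR core (green) and of the NF-Y motif (purple) in the 38 promoter windows of 34 genes, in bases from the annotated start (x axis). Arrows point right for a match on the gene's strand and left for the opposite strand. The CHR cores of mitosis genes gather around the start, with NF-Y motifs mostly upstream of them, while the windows of Cdk4, Cdk6, Smc3 and also of the mitosis genes Birc5 and Mad2l1 are empty.

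None of the members with both promoter motifs was called by edgeR, which called 3.91% of all genes tested. Of these 18 genes 3 had an unadjusted p under 0.05, all lower (9.8% of all genes), and DESeq2 called 1 (Ncapg), with edgeR log2 fold changes between -0.42 and 0.17 and a median of -0.10. The 16 members whose windows lacked the pair had a median of -0.03 and also 0 calls by edgeR, with 1 higher and 2 lower at an unadjusted p under 0.05. Both called genes, Ccnd1 and Rad21, were among the 12 members with no window. Over all tested genes with a window, the median was -0.02 for the 820 with both motifs and 0.0053 for the 12265 others. Of the 820, 15 were called higher and 10 lower (3.05%), and of the others 314 higher and 184 lower (4.06%). No test was made of these medians or shares.

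Of the D cyclins, which start the commitment to a new cycle, Ccnd1 rose. Ccnd1 (chr7:144929931-144939831 in mm10, minus strand) had 5859 and 4106 reads in shScramble replicates 1 and 2 and 9092 and 8404 reads in shYthdf2 replicates 1 and 2. Both depleted libraries were above both controls, although the controls themselves differed. The level went from 147 ± 22.9 to 250.4 ± 22.0 CPM (SD, n = 2 in each group), a log2 fold change of 0.77 (SE 0.13, adjusted p = 0.0155). It was called under the 15 other settings that use an adjusted p, with log2 fold changes between 0.62 and 0.94, but not under the study's criteria, which ask for a log2 fold change of 1 or more in size. LTO1, a gene on the opposite strand, covers 21.7% of the exon bases of Ccnd1, and since the reads were counted without strand its reads cannot be told apart there.

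Ccnd2 (cyclin D2) had 382 and 265 reads in the controls and 477 and 635 reads in the depleted libraries. It showed a log2 fold change of 0.74 (SE 0.21), about as large as that of Ccnd1, but from few reads, and did not pass edgeR's test (adjusted p = 0.0811), while DESeq2 called it (0.73, adjusted p = 0.0269). Single libraries decided its value: it passed without shScramble replicate 1 (0.92, adjusted p = 0.0159) or without shYthdf2 replicate 1 (0.90, adjusted p = 0.0143), and did not without shScramble replicate 2 (0.58, adjusted p = 0.244) or without shYthdf2 replicate 2 (0.55, adjusted p = 0.171). Ccnd3 (cyclin D3) had the opposite sign, with 10539 and 9605 reads in the controls against 8393 and 9161 reads, a log2 fold change of -0.25 (SE 0.10, adjusted p = 0.187). For Ccnd3 both depleted libraries were below both controls on the CPM scale. Per exon length, Ccnd3 was the most abundant D cyclin in the controls with 118.9 ± 3.44 RPKM (CPM divided by the exon length in kilobases), followed by Ccnd1 with 38.9 ± 6.07 RPKM and Ccnd2 with 1.48 ± 0.24 RPKM. In the depleted cells the levels of Ccnd3 and Ccnd1 stood nearer to each other, at 99.8 ± 2.95 and 66.5 ± 5.84 RPKM, with Ccnd2 at 2.47 ± 0.42 RPKM.

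Cdk4, the catalytic partner of the D cyclins, was the most abundant of the 46 genes per length in the controls (277 ± 12.3 RPKM). It had 14612 and 12005 reads in shScramble replicates 1 and 2 and 18509 and 16325 reads in shYthdf2 replicates 1 and 2. Both depleted libraries were above both controls, replicate 1 by more, and the log2 fold change of 0.34 (SE 0.11) did not pass (adjusted p = 0.127). It passed without shYthdf2 replicate 2 (0.46, adjusted p = 0.000747) but not without shYthdf2 replicate 1 (0.21, adjusted p = 0.317), shScramble replicate 1 (0.39, adjusted p = 0.216) or shScramble replicate 2 (0.30, adjusted p = 0.484). Cdk6, the alternative partner, was far less abundant per length (5.69 ± 0.88 RPKM). Its 2753 and 1932 reads in the controls and 2410 and 2403 reads in the depleted libraries overlapped, with a log2 fold change of -0.0018 (95% confidence interval -0.29 to 0.29).

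All 4 CDK inhibitors were among the less abundant members, and none was called. Cdkn1b, which inhibits Cdk2 complexes and is a brake on entry to S phase, had 631 and 731 reads in the controls and 569 and 665 reads in the depleted libraries, with a log2 fold change of -0.21 (SE 0.18, adjusted p = 0.569). Cdkn2a, the locus of the Ink4a and Arf proteins, had 751 and 596 against 712 and 495 reads (log2 fold change -0.20, SE 0.21, adjusted p = 0.635). The groups overlapped for both. Cdkn2b, an Ink4 inhibitor of Cdk4 and Cdk6, had 152 and 150 against 215 and 149 reads (log2 fold change 0.22, SE 0.28, adjusted p = 0.719). Cdkn2c, another Ink4 inhibitor, had 28 and 75 against 49 and 26 reads (log2 fold change -0.54, SE 0.57, adjusted p = 0.645). Cdkn2c was the least abundant member, with controls that differed from each other by more than the groups did and a 95% confidence interval of -1.82 to 0.74. The 4 inhibitors together came to 43.4 and 49.3 CPM in the controls and 45.2 and 37.3 CPM in the depleted libraries.

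**Figure D3:**
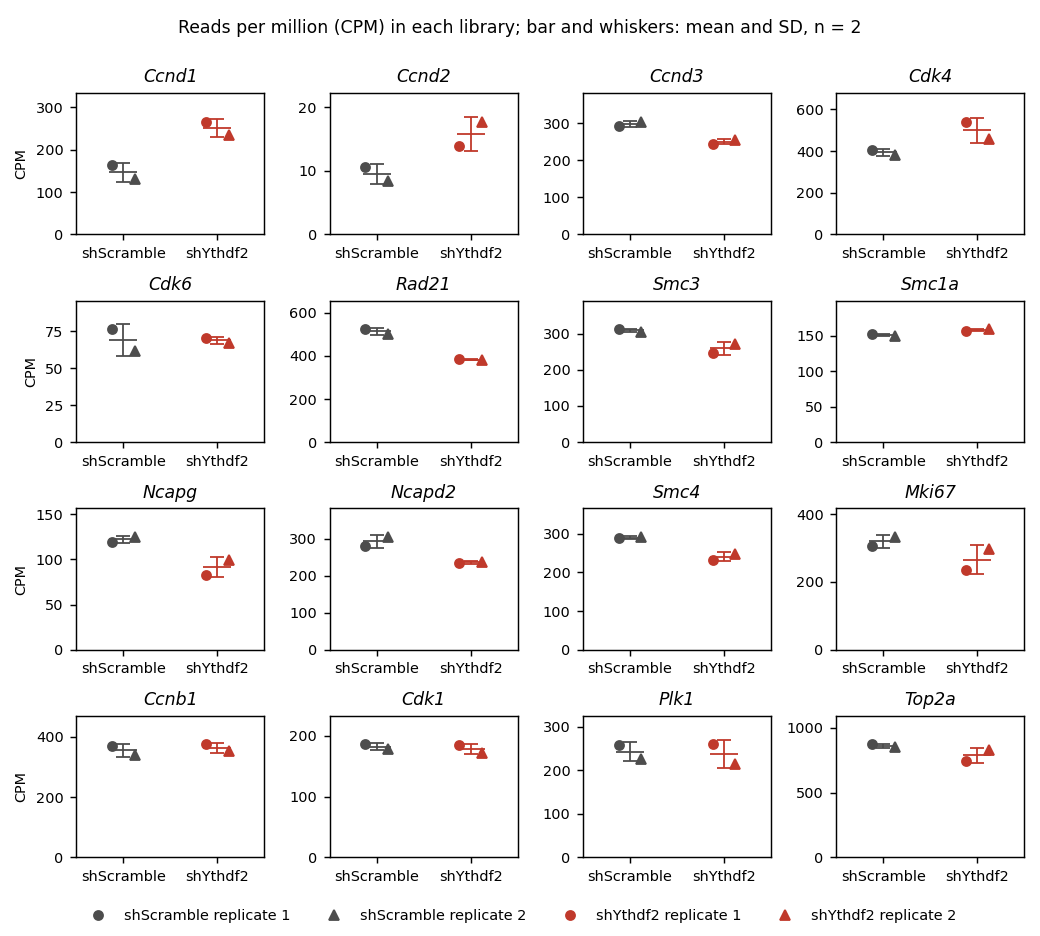
Level of 16 of the genes in each library in CPM (y axis, starting at 0) for shScramble (grey) and shYthdf2 (red), with circles for replicate 1, triangles for replicate 2, and the mean and SD of the 2 libraries of a group. Ccnd1 and Rad21 have both groups well apart, while Ccnb1, Cdk1 and Plk1 overlap.

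None of the 9 genes of the mitotic cyclins, Cdk1 and the enzymes that switch Cdk1 on and off was called. Their log2 fold changes ran from -0.21 to 0.04. Cdk1, the kinase that drives entry into mitosis, had 6692 and 5618 reads in the controls and 6298 and 6161 reads in the depleted libraries. Its groups overlapped, and the log2 fold change was -0.03 (95% confidence interval -0.26 to 0.20). Ccnb1, its cyclin B1 partner, had 13320 and 10690 against 12815 and 12588 reads, which also overlapped on the CPM scale (log2 fold change 0.04, 95% confidence interval -0.20 to 0.27). For Ccnb1, 8.20% of windows of 150 bases in its transcripts occur also in pseudogenes such as Ccnb1-ps, and its counts are uncertain to that extent. Foxm1, the transcription factor of the G2/M programme and the highest of this group, had 2620 and 2202 against 2529 and 2612 reads. Foxm1 lay just above the controls in both depleted libraries, with a log2 fold change of 0.04 (95% confidence interval -0.19 to 0.28). Ccnb2 (cyclin B2) was the lowest of this group, with 5679 and 5318 against 5224 and 4647 reads. Both depleted libraries lay below both controls for Ccnb2, mainly in replicate 2, and the log2 fold change of -0.21 did not pass (SE 0.12, adjusted p = 0.346). Ccna2 (cyclin A2), the phosphatases Cdc25a, Cdc25b and Cdc25c and the inhibitory kinase Wee1 had adjusted p-values between 0.541 and 0.927.

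Mitotic kinases and chromosomal passengers, which build the spindle and correct faulty attachments, had 0 of 6 genes called. Plk1, the polo kinase, had 9282 and 7155 reads in the controls and 8882 and 7715 reads in the depleted libraries. Its libraries varied more within each group than between the groups (log2 fold change -0.03, 95% confidence interval -0.30 to 0.25). Birc5 (survivin), a subunit of the chromosomal passenger complex and the highest of the 6, had 4491 and 3908 against 4803 and 4836 reads. Both depleted libraries were above both controls for Birc5, without passing the test (log2 fold change 0.15, SE 0.10, adjusted p = 0.453). Aurkb, the kinase of the same complex and the lowest of the 6, had 4082 and 3797 against 3846 and 3764 reads. It lay below both controls in both depleted libraries (log2 fold change -0.10, SE 0.11, adjusted p = 0.633). The kinase of this complex and its subunits Birc5 and Incenp thus had log2 fold changes of -0.10, 0.15 and -0.05. Aurka, which matures centrosomes, and its activator Tpx2 were at -0.03 and -0.01.

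Spindle checkpoint genes delay anaphase until every chromosome is attached, and Cdc20 and Ube2c act with the anaphase-promoting complex once the delay ends. None of these 7 genes was called. Ube2c, the ubiquitin-conjugating enzyme of that complex, had the highest value, with 8383 and 6626 reads in the controls and 9175 and 8235 reads in the depleted libraries. The groups of Ube2c overlapped narrowly (log2 fold change 0.17, SE 0.12, adjusted p = 0.448). Bub1, a checkpoint kinase at the kinetochore, had the lowest, with 5653 and 5814 against 4476 and 5429 reads. Both depleted libraries were below both controls for Bub1, but the control libraries differed from each other by nearly as much (log2 fold change -0.27, SE 0.12, adjusted p = 0.242). Without shYthdf2 replicate 2 Bub1 passed (-0.38, adjusted p = 0.0258), and without any of the other libraries it did not (-0.38 to -0.15), with the value nearest to 0 when shScramble replicate 2 was left out. Cdc20 (256 ± 12.5 RPKM) and Ube2c (238 ± 17.1 RPKM) followed Cdk4 as the most abundant members per length in the controls, and the log2 fold change of Cdc20 was -0.0036. Bub1b and Ttk lay at -0.07 and -0.22, both with the groups apart, and Mad2l1 and Bub3 at 0.0083 and 0.16, both overlapping.

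**Figure D4:**
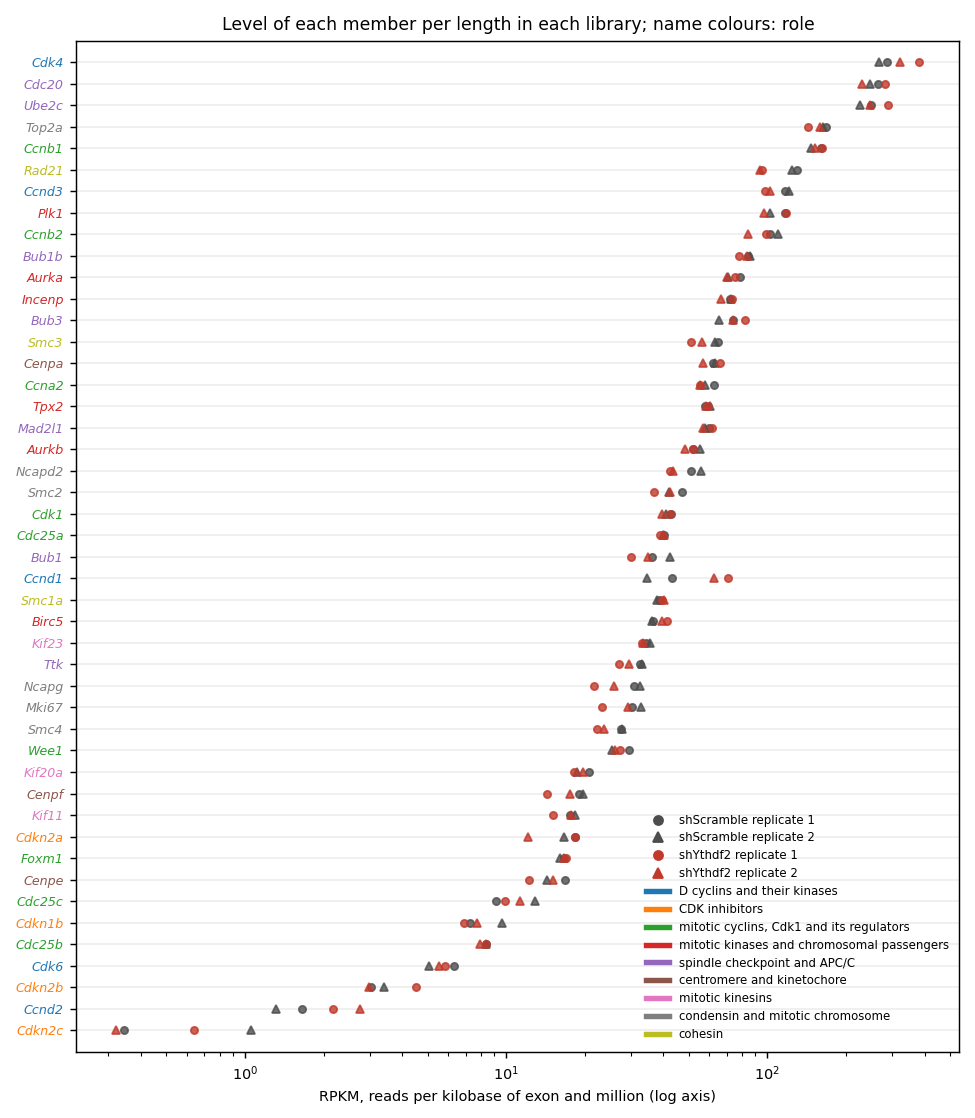
Level per exon length of each of the 46 genes in each library in RPKM (x axis, log scale), ordered by the control mean, with name colours for the role. Levels run from Cdk4 at 277 RPKM to Cdkn2c at 0.70 RPKM in the control mean, and the points of shYthdf2 (red) and shScramble (grey) sit close together except for Ccnd1, Ccnd2 and Cdkn2c.

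The plot of levels per length shows that the differences between genes were far larger than those between the groups. Cdk4, Cdc20, Ube2c, Top2a, Ccnb1, Rad21, Ccnd3, Plk1 and Ccnb2 stood above 100 RPKM in the control mean, whereas Cdkn2b, Ccnd2 and Cdkn2c were below 4 RPKM.

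Centromere and kinetochore genes and mitotic kinesins showed values below 0 in all 6 cases (49.8% of all genes) and 0 calls. Cenpe, Cenpf and Kif11 each have over 7000 bases of exon. Genes of that length above 4 on the log2 CPM scale had a median log2 fold change of -0.09. Cenpa, the histone variant of the centromere, had 3634 and 3214 reads in the controls and 3662 and 3293 reads in the depleted libraries (log2 fold change -0.03, SE 0.11, adjusted p = 0.927). Cenpf, a large protein of the outer kinetochore, had 7747 and 7023 against 5547 and 7146 reads (log2 fold change -0.28, SE 0.12, adjusted p = 0.228). Cenpa overlapped between the groups, while Cenpf was below both controls in both depleted libraries, at -0.43 from the control mean on the log2 scale in replicate 1 and at -0.13 in replicate 2. Cenpf passed without shYthdf2 replicate 2 (-0.43, adjusted p = 0.00682), but not without shYthdf2 replicate 1 (-0.13, adjusted p = 0.668) or either control (-0.30 and -0.25). Cenpe, a kinesin of the kinetochore, overlapped at -0.19. Of the kinesins, Kif20a, needed for cytokinesis, had 2927 and 2295 against 2431 and 2753 reads (log2 fold change -0.06, SE 0.11, adjusted p = 0.826). Kif11, which pushes the spindle poles apart, had 6106 and 5586 against 4995 and 6145 reads (log2 fold change -0.13, SE 0.11, adjusted p = 0.580). Both overlapped between the groups, and exons of Brd8 and Cdc23 on the opposite strand cover 66.4% of the exon bases of Kif20a. Kif23 lay at -0.07.

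Condensin, which compacts chromosomes for mitosis, and cohesin, which holds sister chromatids together, included the fall of Rad21. Of the 9 genes of both role groups, which include Top2a and Mki67, 8 had a log2 fold change below 0 (49.8% of all genes). For 7 of the 9 both depleted libraries lay below both controls (25.5% of all genes). The median of the 9 was -0.27, against 0.0019 over all genes. Of the subunits themselves, all 4 of condensin and 2 of 3 of cohesin were below 0. Rad21, the kleisin subunit that separase cuts at anaphase (chr15:51962604-51993538 in mm10, minus strand), had 18889 and 15840 reads in shScramble replicates 1 and 2 and 13169 and 13595 reads in shYthdf2 replicates 1 and 2. The groups were far apart beside their own spread, with 514 ± 15.3 CPM in the controls and 383 ± 3.77 CPM in the depleted libraries (SD, n = 2 in each group). The log2 fold change was -0.43 (SE 0.10, adjusted p = 0.0454), close to the threshold. The call was lost without shScramble replicate 1 (-0.39, adjusted p = 0.189) and without shScramble replicate 2 (-0.46, adjusted p = 0.126), and was kept in the other 13 settings that use an adjusted p. Under the study's criteria Rad21 was not called either. Gm52217, on the opposite strand, covers 13.0% of the exon bases of Rad21.

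Neither of the other cohesin subunits was called. Smc3, one arm of the ring, had 11270 and 9630 reads in the controls and 8446 and 9716 reads in the depleted libraries, both below the controls on the CPM scale (log2 fold change -0.25, SE 0.10, adjusted p = 0.197). It passed narrowly without shYthdf2 replicate 2 (-0.32, adjusted p = 0.0492) and not without any of the other libraries (-0.27 to -0.19). Smc1a, the other arm, had 5485 and 4720 against 5368 and 5697 reads, both above the controls (log2 fold change 0.07, SE 0.10, adjusted p = 0.765). The 95% confidence intervals were -0.48 to -0.02 for Smc3 and -0.16 to 0.29 for Smc1a, beside -0.65 to -0.20 for Rad21.

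Among the condensin genes Ncapg, a subunit of condensin I, had the lowest log2 fold change after Rad21 and the sparse Cdkn2c. It had 4285 and 3941 reads in the controls and 2845 and 3541 reads in the depleted libraries. Both depleted libraries were below both controls, replicate 1 by more, with a log2 fold change of -0.42 (SE 0.12, adjusted p = 0.0800). DESeq2 called Ncapg (-0.42, adjusted p = 0.0240). In edgeR it passed without shYthdf2 replicate 2 (-0.55, adjusted p = 0.000969) and not without any of the other libraries (-0.46 to -0.30). Ncapd2, another condensin I subunit, and Smc4, shared by both condensins, were below both controls at -0.31 (adjusted p = 0.121) and -0.27 (adjusted p = 0.168). Without shYthdf2 replicate 2 Ncapd2 passed narrowly (-0.33, adjusted p = 0.0484), and without any of the other libraries it did not (-0.37 to -0.25). Smc2, the partner of Smc4, overlapped at -0.17 (adjusted p = 0.442). The 4 condensin genes summed to 947 and 955 CPM in the controls and to 753 and 820 CPM in the depleted libraries. Lcorl, on the opposite strand, covers 20.1% of the exon bases of Ncapg.

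Top2a and Mki67, which untangle and coat mitotic chromosomes, in that order, and are used as markers of cycling cells, had many reads. Top2a, topoisomerase II alpha, had 31456 and 26816 reads in the controls and 25578 and 29608 reads in the depleted libraries. It was the highest of the condensin and mitotic chromosome genes (log2 fold change -0.13, SE 0.10, adjusted p = 0.524). Mki67, the Ki-67 protein of the chromosome surface, had 11054 and 10514 against 8045 and 10613 reads (log2 fold change -0.27, SE 0.13, adjusted p = 0.264). Both were below the controls in both depleted libraries, by more in replicate 1. Mki67 passed without shYthdf2 replicate 2 (-0.44, adjusted p = 0.00326), but not without shYthdf2 replicate 1 (-0.11, adjusted p = 0.723) or either control (-0.33 and -0.21).

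Several of the genes with values below 0 are long, and shYthdf2 replicate 1 stood apart from the other libraries in this respect. Among 8348 genes above 4 on the log2 CPM scale, the median deviation of this library from the control mean went from 0.18 (log2) for genes with under 2000 bases of exon to -0.17 for those over 7000, whereas in shYthdf2 replicate 2 it went from 0.01 to -0.01. The condensin and mitotic chromosome genes had a median deviation of -0.32 in replicate 1 and of -0.17 in replicate 2. Over the 46 members Spearman's rho between log2 fold change and exon length was -0.31, and over the 8348 genes it was -0.26, a description over genes that share the same libraries. With the trend on length removed, Rad21 (-0.42, adjusted p = 0.0157) and Ccnd1 (0.77, adjusted p = 0.00674) were still called, and Mki67 and Cenpf moved from -0.27 and -0.28 to -0.19 and -0.19. Several shorter genes moved downward in the same fit. Among those below 0, Ccnb2 went from -0.21 to -0.31 (adjusted p = 0.0757), Ccnd3 from -0.25 to -0.31 (adjusted p = 0.0766) and Cdkn2a from -0.20 to -0.32 (adjusted p = 0.323). Among those above 0, Cdk4 went from 0.34 to 0.24 (adjusted p = 0.102), Cdkn2b from 0.22 to 0.10 and Bub3 from 0.16 to 0.09. The median of the members went from -0.06 to -0.10. GC content moved with the libraries too: the same medians went from -0.19 below 42% GC to 0.17 above 54% in replicate 1, and from -0.06 to 0.05 in replicate 2. With the trend on GC removed both calls were again kept, Smc3 went from -0.25 to -0.13 and Smc4 from -0.27 to -0.15, while Ccnd3 went to -0.37 (adjusted p = 0.0685) and Ncapd2 to -0.39 (adjusted p = 0.0623).

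**Figure D5:**
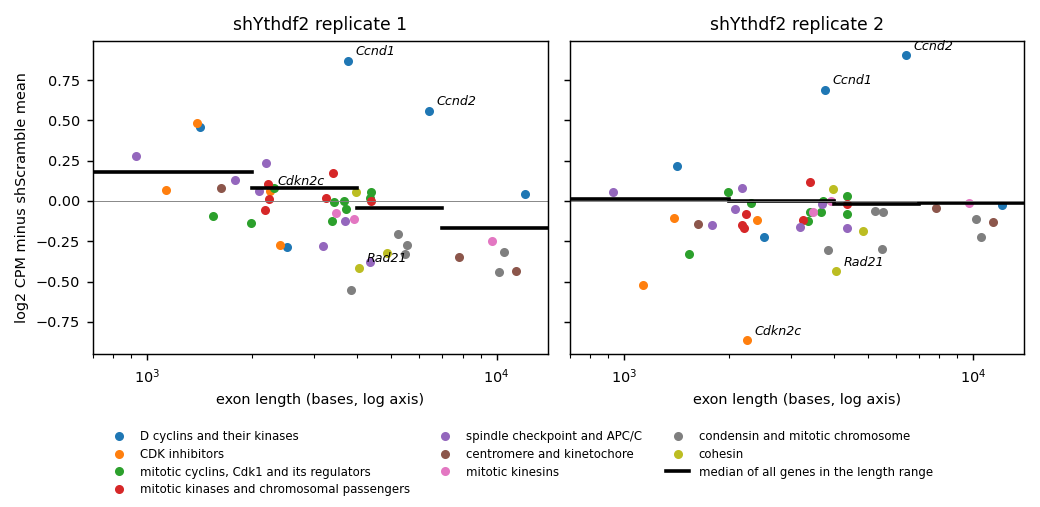
Difference of the log2 CPM of each of the 46 genes from the shScramble mean (y axis) against exon length (x axis, log scale) in shYthdf2 replicate 1 (left) and replicate 2 (right), coloured by role, with black lines for the median of all genes above 4 log2 CPM in 4 ranges of length. The lines descend from 0.18 to -0.17 in replicate 1 and stay within 0.02 of 0 in replicate 2, and Rad21 and Ccnd1 lie off the lines in both.

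Other genes of the cell cycle, 138 in 6 lists, gave 4 called higher (2.43% of all genes) and 1 called lower (1.49% of all genes). These counts are close to the background and are not a result about the lists. The median log2 fold change of the 138 was -0.0097. In the list of G1/S control 1 of 22 was called, Rbl2, a member of the retinoblastoma family, with 577 and 574 reads in the controls and 914 and 971 reads in the depleted libraries. Cyclin E1 (Ccne1), which acts after the D cyclins, had 5820 and 5065 against 6896 and 8108 reads (log2 fold change 0.41, SE 0.11, adjusted p = 0.0638), and Ccne2 had 543 and 376 against 355 and 467 reads (-0.21, SE 0.20, adjusted p = 0.622). For Ccne1 both depleted libraries were above both controls, for Ccne2 they overlapped. Cdkn1a, a CDK inhibitor of the DNA damage response, had 2150 and 2313 against 3533 and 2701 reads (log2 fold change 0.43, SE 0.16, adjusted p = 0.172). Rb1 had 997 and 852 against 1313 and 1070 reads (log2 fold change 0.32, SE 0.15, adjusted p = 0.273). Both were above the controls in both depleted libraries, replicate 1 by more, and neither passed. Of the 9 MuvB, B-Myb and NF-Y genes 0 were called by edgeR or limma-voom and 1 by DESeq2. At an unadjusted p under 0.05, 3 of the 9 were lower (9.8% of all genes) and 0 higher. Mybl2, which encodes B-Myb, had 34625 and 29401 against 25789 and 26365 reads, both below the controls (log2 fold change -0.35, SE 0.10, adjusted p = 0.0828).

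Of 47 other genes of mitotic entry and the spindle, edgeR called 2 higher, Gtse1 and Spc24 (2.43% of all genes). It called 1 lower, Pttg1 (1.49% of all genes). At an unadjusted p under 0.05, 5 were higher (11% of all genes) and 5 were lower (9.8% of all genes). Gtse1, a microtubule-binding protein of G2 and M, had 7962 and 6129 reads in the controls and 11471 and 10755 reads in the depleted libraries. Spc24, a subunit of the Ndc80 complex at the kinetochore, had 3162 and 2973 against 4669 and 4369 reads. Pttg1 (securin), which inhibits the separase that cuts Rad21, had 3412 and 3171 against 2424 and 2245 reads. All 3 had the groups well apart. Of 17 other genes of the anaphase-promoting complex 0 were called by edgeR or limma-voom and 2 by DESeq2. At an unadjusted p under 0.05, 3 were higher (11% of all genes), and the median log2 fold change of the 17 was 0.13. Of 16 other genes of cohesin and condensin 0 were called by any of the tools. At an unadjusted p under 0.05, 1 was higher (11% of all genes) and 5 were lower (9.8% of all genes). The median of the 16 was -0.17. Of 27 S phase genes edgeR called 1 higher (2.43% of all genes), the thymidylate synthase Tyms, with 2344 and 2001 against 3399 and 3152 reads. At an unadjusted p under 0.05, 3 of the 27 were higher (11% of all genes) and 0 lower.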

How the data were processed

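RNA-seq of 4 libraries was analysed, 2 shScramble and 2 shYthdf2, grouped and numbered by their titles. The study's methods call them independent biological replicates of poly(A) RNA. The authors deposited raw read counts per gene, made per the file headers with featureCounts 2.0.3 over the exons of mm10 RefSeq genes, without a strand option and with both reads of a pair counted (61.5% to 63.9% of counts from 1 to 20 are even). The submitters' processing notes also name fastp 0.19.4, HISAT2 2.2.1 and DESeq2 1.40.2. All count columns were used and 0 others were present. Depth was 36422510 and 31113006 reads in the shScramble libraries (replicate 1, replicate 2) and 34812976 and 35305720 in the shYthdf2 libraries. A count of 0 allows up to 3 reads, and such limits cover counting error only.

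The counts were tested on all genes with edgeR 4.0.16 in R 4.3.3 (quasi-likelihood F test, TMM scaling, filterByExpr with a minimum count of 10 and total of 15, no covariate, two-sided, Benjamini-Hochberg adjustment over 18341 genes, calls at an adjusted p under 0.05). Deviations use log2 CPM with a prior count of 2. DESeq2 1.42.0, limma-voom (limma 3.58.1), other scalings and filters, halved counts, the study's criteria, a replicate block and leaving out each library were alternatives. The fits were tested on simulated data. Counts per library are given for called members, D cyclins and their kinases, CDK inhibitors, Ccnb1, Cdk1, Plk1, Top2a, Mki67, Foxm1 and the extremes of each role, and for Ythdf2, Cdkn1a, Ccne1, Ccne2, Rb1, Mybl2 and called genes of the other cell cycle lists. Members and lists were chosen with earlier results of these data known. Overlap and shared windows of 150 bases were taken from the counted gene models and GENCODE transcripts, and promoters from RefSeq GRCm38.p6.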

Additional observations from a re-analysis of the deposited data

How the results depend on the processing

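With 2 libraries a group, calls near the threshold depend on the setting, and no alternative changed the direction of Ccnd1 or Rad21. Calls among the members numbered 2, and became 5 with no filter on low counts, 4 with DESeq2, 0 under the study's criteria (an unadjusted p of at most 0.05 and a log2 change of 1 or more in size) and 1 to 9 when a replicate was left out. Calls over all genes numbered 718, and became 1938 with no filter, 1402 with DESeq2 and 834 to 2288 with a replicate left out. Calls among the other cell cycle genes numbered 5, and became 15 with no filter, 14 with DESeq2, 1 under the study's criteria, 3 to 25 with a replicate left out and 9 with the length trend removed. The members' median of -0.06 became -0.10 with the length trend removed, an alternative chosen, like the GC trend, after seeing the data.

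The labels give both groups replicate numbers 1 and 2 but no shared batch. Over the 18341 genes tested, the log2 CPM difference of replicate 1 from replicate 2 was compared between the groups. Its correlation between shScramble and shYthdf2 was 0.225. With the number as a replicate block 12 members (3 higher, 9 lower), 3525 genes and 28 other cell cycle genes were called.

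Members near 0 changed sign without a call: Cdk6 with no filter (0.0021), voom (0.0035), the replicate block (0.0062) and the length trend removed (0.096), Cdc20 with no filter (0.00035), Mad2l1 with upper quartile scaling (-0.0089) and the length trend removed (-0.064), Ccnb1 and Tpx2 with the length trend removed (-0.026 and 0.0021) and Foxm1 with the GC trend removed (-0.024). Leaving out a replicate gave these ranges: Cdk6 -0.15 to 0.17, Cdkn1b -0.40 to 0.0076, Cdkn2a -0.52 to 0.066, Cdkn2b -0.11 to 0.49, Cdkn2c -1.14 to 0.47, Ccnb1 -0.026 to 0.10, Cdk1 -0.082 to 0.017, Cdc25b -0.072 to 0.00084, Cdc25c -0.29 to 0.21, Wee1 -0.15 to 0.078, Plk1 -0.17 to 0.10, Aurka -0.11 to 0.045, Incenp -0.12 to 0.017, Tpx2 -0.044 to 0.024, Mad2l1 -0.049 to 0.063, Cdc20 -0.15 to 0.13, Cenpa -0.14 to 0.079 and Kif20a -0.14 to 0.025.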
